A study of Homo sapiens with 8 samples.

Results

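The Notch receptors NOTCH1, NOTCH2 and NOTCH3, the ligands JAG1, JAG2 and DLL1 and the target genes HES1, HEY1 and HEY2 were followed across human breast epithelial cells before transformation, after transformation and after treatment with all-trans retinoic acid (ATRA). The 9 genes were chosen by name, and on the arrays 25 probe sets name 1 of them and no other gene. They are 9 of the 19775 genes measured. Each gene was read from the probe set with the highest mean signal, and its other probe sets served as a check. MCF-10F is an immortalized, normal-like breast epithelial cell line. The second group, trMCF clone 11, is 1 colony picked from MCF-10F cells that had been transformed with estradiol, so it stands for a single clone. The remaining groups were the same clone kept for 26 days in 1 µM or 10 µM ATRA with the medium changed every day. Each group had 2 arrays, 8 in all. All 4 groups descend from the same line, and vehicle (0.1% DMSO) was named as the control of the treatment, without saying whether the arrays of the untreated clone came from vehicle-treated cells. No source used here says whether paired arrays were grown as separate cultures, so p-values measure only the spread between arrays, which may be technical. One trMCF clone 11 array (replicate 1) carries the disease tag of the normal cells in its label although its title names the clone, and it was grouped by its title.

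Notch signaling works between neighboring cells. A ligand of the Jagged or Delta family on one cell pulls on a receptor of the other, proteases cut the receptor, and its intracellular part enters the nucleus, joins the DNA-binding protein RBPJ and switches on genes of the HES and HEY families, which encode transcriptional repressors. Sugars added to the receptor by enzymes such as the Fringe proteins alter its response to each ligand, and ubiquitin ligases of the Mind bomb and Neuralized families let the ligands be internalized. In the mammary gland the pathway is known for guiding luminal fate, and its forced activation can transform mammary epithelium.

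Of the target genes, HES1 and HEY2 had a promoter window in the table used and both hold the letters that RBPJ recognizes, so their windows are shown, from 250 bases before the annotated transcription start up to the start (RefSeq, GRCh38.p14, written along the gene's strand). HES1 lies at chr3:194135898-194136147 (plus strand) and HEY2 at chr6:125749382-125749631 (plus strand), and capitals mark the RBPJ core TGGGAA on either strand.
HES1: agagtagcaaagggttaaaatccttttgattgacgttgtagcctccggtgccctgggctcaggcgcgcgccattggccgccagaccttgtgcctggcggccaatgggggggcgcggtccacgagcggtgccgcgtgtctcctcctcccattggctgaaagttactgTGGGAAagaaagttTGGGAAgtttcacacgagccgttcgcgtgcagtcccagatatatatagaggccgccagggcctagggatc
HEY2: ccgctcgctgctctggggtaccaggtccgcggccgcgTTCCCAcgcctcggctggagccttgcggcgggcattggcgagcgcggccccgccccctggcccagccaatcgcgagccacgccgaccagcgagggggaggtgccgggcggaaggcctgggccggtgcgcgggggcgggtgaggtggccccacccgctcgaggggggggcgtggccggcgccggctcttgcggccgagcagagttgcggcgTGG
HES1 held 2 copies in the same direction, the first starting 84 and the second 70 bases before the start. HEY2 held 1 copy on the opposite strand at 213 bases before the start, and another that began 3 bases before the start and ran past it, of which the first part is shown. Of the 9 genes, 7 had a window of 300 bases in the table (250 before and 50 after the start), the promoters of HEY1 and DLL1 were not analysed here, and those of NOTCH1, NOTCH2, NOTCH3, JAG1 and JAG2 did not hold these letters. The core is short, and 24.0% of all 35116 promoter windows held it, so a match is a description of the letters and not of binding.

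The arrays behaved differently within groups. The root mean square log2 difference between the 2 arrays of a group was 0.44 for MCF-10F, 0.568 for trMCF clone 11, 0.215 at 1 µM and 0.245 at 10 µM. Median signals ran from 47.26 to 48.77, so the arrays were on a common scale. CYP26B1, a retinoic acid-degrading enzyme, rose by 2.86 ± 0.20 (SE) at 1 µM and by 2.74 ± 0.21 at 10 µM on the log2 scale (limma, adjusted p = 0.016 and 0.00261). Of the other 3 retinoid response genes checked, CYP26A1 rose at 10 µM by 1.28 (adjusted p = 0.0142) and was at 0.72 at 1 µM (0.132), DHRS3 was at 1.08 and 1.27 (0.293 and 0.138), and RARB at 0.13 and 0.22 (0.835 and 0.713). The 7 epithelial markers summed to 32660 to 49170 in MCF-10F, 34280 to 35080 in trMCF clone 11 and 24620 to 28740 with ATRA. Of these, EPCAM and CDH1 had signals of 4805 to 7964 and 4472 to 5857 over the 8 arrays, and KRT19 only 26.5 to 72.1. KRT5 was at 15334 and 4884 in MCF-10F, at 6037 and 7342 in trMCF clone 11 and at 2496 to 4389 with ATRA. The immune marker PTPRC was at 9.93 to 14.4. KRT14, the basal keratin, was at 9150 and 1330 in MCF-10F, at 3230 and 4549 in trMCF clone 11 and at 34.0 to 212 with ATRA. The summed signal of the 5 endothelial markers ran from 200 to 1172 in MCF-10F, 251 to 366 in trMCF clone 11 and 685 to 1290 with ATRA, and PECAM1 was the only one over 100 on both arrays of a group. That of the 3 immune markers ran from 119 to 469, 175 to 248 and 504 to 738, with only CD14 over 100 on both arrays. The 6 fibroblast markers summed to 1033 to 1764, 445 to 662 and 288 to 308 in the same order, and the 4 adipocyte markers to 102 to 155 over all arrays. Their part in the results below was not tested. In RNA from whole cultures, fewer cells of a type and less RNA per cell cannot be told apart.

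None of the 9 genes passed the test in any of the 6 comparisons. A difference passed at a Benjamini-Hochberg adjusted p under 0.05 over all 54613 probe sets, in limma's moderated test on log2 signals. By this rule 4.53% of all genes differed between trMCF clone 11 and MCF-10F, 1.9% between 1 µM ATRA and trMCF clone 11, 7.83% between 10 µM ATRA and trMCF clone 11, 0.612% between 1 µM ATRA and MCF-10F, 2.56% between 10 µM ATRA and MCF-10F, and 0% between the doses. At an unadjusted p under 0.05 there were 3 of the 9 genes in trMCF clone 11 against MCF-10F (NOTCH1, JAG2 and HEY1), against 22.9% of all genes. In the same order as above, the other 5 comparisons had 0, 1, 1, 1 and 0, against 21.6, 24, 12.5, 16.5 and 1.69% of all genes. The other probe sets of these genes gave the same count, since 0 of the 25 passed in any comparison. In trMCF clone 11 against MCF-10F the arrays did not overlap for 4 of the 9 genes, against 48.3% of all genes. The other 5 comparisons, in that order, had 1, 3, 7, 5 and 4, against 54.5, 48.7, 50.3, 50.5 and 38.8%. Arrays that lie apart are thus common with 2 per group, and where described below are not read as a result.

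**Figure D1:**
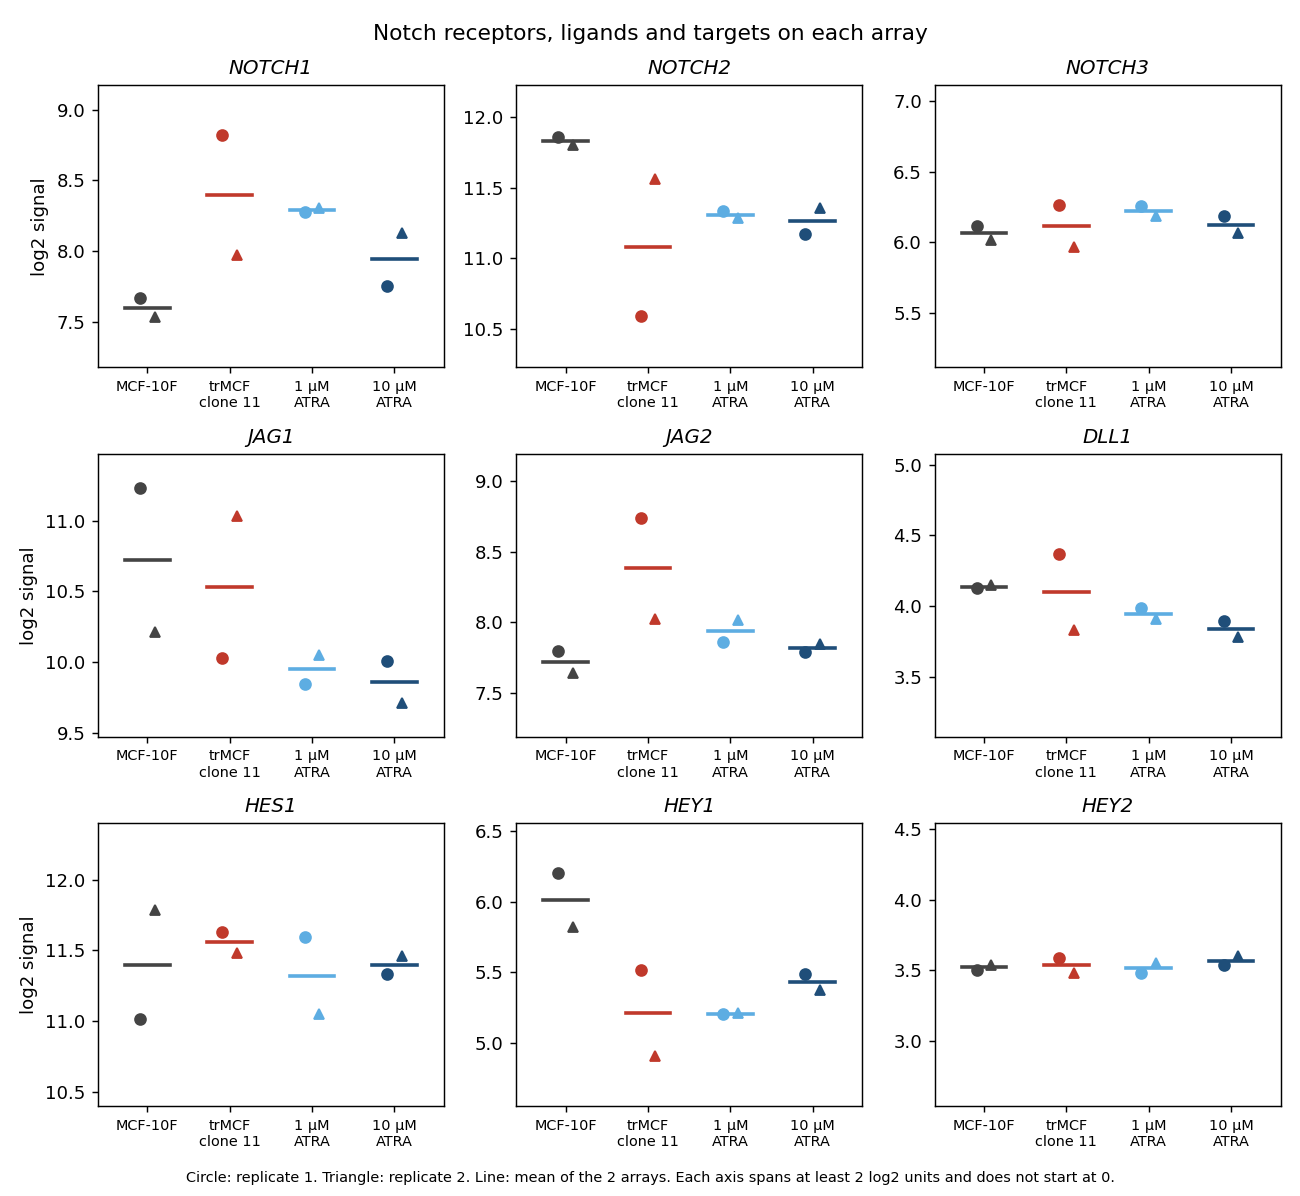
Log2 signal of the 9 genes (brightest probe set) on each of the 8 arrays, by group, with circles for replicate 1, triangles for replicate 2 and a line at the mean. NOTCH1 and JAG2 are highest and NOTCH2 lowest on trMCF clone 11 replicate 1, the JAG1 arrays of MCF-10F and of trMCF clone 11 lie about 1 log2 unit apart, and HEY1 is highest on both MCF-10F arrays.

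Among the receptors, the brightest probe sets of NOTCH1 and NOTCH2 lay on opposite sides of MCF-10F in the transformed clone, neither past the test. NOTCH1 had log2 signals of 7.67 and 7.53 in MCF-10F, 8.82 and 7.97 in trMCF clone 11, 8.27 and 8.31 at 1 µM and 7.75 and 8.13 at 10 µM ATRA. Every array of the clone, treated or not, was above both MCF-10F arrays, but the 2 untreated arrays of the clone were themselves 0.85 apart. The difference of trMCF clone 11 from MCF-10F was 0.80 (95% interval 0.10 to 1.49, adjusted p = 0.198). With ATRA, NOTCH1 differed from the untreated clone by -0.11 at 1 µM (interval -0.80 to 0.59) and by -0.45 at 10 µM (-1.10 to 0.20). It stayed above MCF-10F by 0.69 at 1 µM (-0.01 to 1.39) and by 0.34 at 10 µM (-0.31 to 0.99), and none of these passed (adjusted p from 0.439 to 0.884). The dimmer NOTCH1 probe set, 223508_at, gave 0.32 ± 0.29 (SE) for the clone against MCF-10F, with only the first trMCF clone 11 array (6.10) apart from the rest (5.20 to 5.50). The order of the group means of NOTCH1 was MCF-10F, 10 µM, 1 µM and trMCF clone 11, and no neighbors in that order differed by more than their interval allowed.

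By its brightest probe set NOTCH2 lay lower on the arrays of the clone, without passing the test. Its log2 signals were 11.86 and 11.80 in MCF-10F, 10.59 and 11.56 in trMCF clone 11, 11.33 and 11.28 at 1 µM and 11.17 and 11.35 at 10 µM. All 6 arrays of the clone were below both MCF-10F arrays, and the lowest was again trMCF clone 11 replicate 1. The differences from MCF-10F were -0.75 for trMCF clone 11 (-1.52 to 0.02, adjusted p = 0.26), -0.52 at 1 µM (-1.29 to 0.25) and -0.57 at 10 µM (-1.24 to 0.11). Against the untreated clone NOTCH2 differed by 0.23 at 1 µM and by 0.19 at 10 µM, with both intervals spanning 0. The brightest probe set (202443_x_at) is one whose probes may match related transcripts, NOTCH2NL copies being the known ones, and a further probe set that names both was left out. The 3 other NOTCH2 probe sets also lay lower in trMCF clone 11, by -0.75, -0.58 and -0.79. With ATRA they disagreed. Against MCF-10F 212377_s_at gave -0.49 at 1 µM and -0.46 at 10 µM, 202445_s_at -0.23 and -0.35, and 210756_s_at -0.02 and 0.01. At 1 µM against the untreated clone 202445_s_at differed by 0.56 (0.03 to 1.09, adjusted p = 0.242). There 212377_s_at and 210756_s_at differed by 0.26 and 0.56, with intervals spanning 0.

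NOTCH3 had narrow values, 6.12 and 6.01 in MCF-10F, 6.26 and 5.96 in trMCF clone 11, 6.26 and 6.19 at 1 µM and 6.19 and 6.06 at 10 µM, and only the 1 µM and MCF-10F arrays did not overlap, by a small margin. Its other probe set, 203238_s_at, read 5.84 and 6.78 in MCF-10F, 5.83 and 5.96 in trMCF clone 11 and 5.11 to 5.27 on the 4 ATRA arrays. By that probe set all ATRA arrays were below all others, with differences from MCF-10F of -1.12 at 1 µM and -1.14 at 10 µM (adjusted p = 0.271 and 0.113). The pair of NOTCH3 probe sets thus disagreed, and the second was singled out after its values were seen.

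Among the ligands, JAG1 was lowest with ATRA and JAG2 highest in the untreated clone, neither past the test. JAG1 had log2 signals of 11.23 and 10.21 in MCF-10F, 10.03 and 11.03 in trMCF clone 11, 9.85 and 10.05 at 1 µM and 10.01 and 9.71 at 10 µM. One array of MCF-10F and one of the untreated clone were about 1 log2 unit above their partners, and the 4 ATRA arrays were below both MCF-10F arrays and close to the lower array of the clone. The differences from MCF-10F were -0.78 at 1 µM (-1.86 to 0.31) and -0.87 at 10 µM (-1.83 to 0.09). Those from trMCF clone 11 were -0.58 (-1.67 to 0.50) and -0.67 (-1.63 to 0.29). Single arrays decided their size. Without MCF-10F replicate 1 the first pair became -0.27 and -0.36, and without replicate 2 -1.28 and -1.38. Without trMCF clone 11 replicate 1 the second pair became -1.09 and -1.18, and without replicate 2 -0.08 and -0.17. Of the 5 other JAG1 probe sets, 216268_s_at had the same array pattern (11.01 and 10.01, 9.83 and 10.95, 9.70 and 9.81, 9.83 and 9.53 in the same order of groups), and 209098_s_at had gaps in the same direction (7.80 and 6.13 in MCF-10F, 6.20 and 7.35 in trMCF clone 11). By contrast 231183_s_at had the gap in the clone (6.69 and 8.27) but little in MCF-10F (7.55 and 7.33). The dim 229924_s_at and 209097_s_at showed neither gap, and their differences at 10 µM from the clone were -0.0037 and -0.10.

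JAG2, another Jagged ligand, read 7.80 and 7.64 in MCF-10F, 8.74 and 8.03 in trMCF clone 11, 7.86 and 8.02 at 1 µM and 7.79 and 7.85 at 10 µM. Both untreated arrays of the clone were above all other arrays, the second by a margin of only hundredths. JAG2 was 0.67 higher in trMCF clone 11 than in MCF-10F (0.04 to 1.29, adjusted p = 0.226). Against the untreated clone it differed by -0.45 at 1 µM (-1.07 to 0.18, adjusted p = 0.42) and by -0.57 at 10 µM (-1.11 to -0.02, adjusted p = 0.224). Its second probe set, 209784_s_at, gave 0.76 ± 0.26 (SE), -0.61 ± 0.26 and -0.47 ± 0.25 for the same 3 comparisons. By that probe set trMCF clone 11 replicate 2 (7.57) was below 10 µM replicate 2 (7.62), so the untreated arrays were not both above all others. DLL1, a Delta ligand, was dim, with log2 signals of 3.78 to 4.37 over all arrays and a signal under 16 on 5 of them. Among the arrays 21.5 to 23.7% of all signals were under 16, so DLL1 was near the low end of the scale and no direction is read from its differences.

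Among the target genes, HES1 was bright and none of its differences passed the test. HES1 had log2 signals of 11.01 and 11.78 in MCF-10F, 11.63 and 11.48 in trMCF clone 11, 11.59 and 11.05 at 1 µM and 11.33 and 11.46 at 10 µM. The widest gap was between the 2 MCF-10F arrays, whose values enclosed all arrays of the other groups. The difference of trMCF clone 11 from MCF-10F was 0.16 (-0.60 to 0.91), and those of 1 µM and 10 µM ATRA from trMCF clone 11 were -0.24 (-0.99 to 0.52) and -0.16 (-0.82 to 0.50). The second bright probe set, 203395_s_at, gave -0.19 for the clone against MCF-10F and -0.22 at 10 µM, so the sign of the first turned with the probe set. By both bright probe sets the 10 µM arrays lay below those of the untreated clone, by a small margin. The third, 203393_at, gave -0.26 and 0.018, but its signal was under 16 on all 8 arrays and no direction is read from it. The intervals of the brightest probe set do not reach a change of 1 log2 unit in either direction.

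By its brightest probe set HEY1 was higher on both MCF-10F arrays than on any array of the clone, without passing the test. Its log2 signals were 6.20 and 5.82 in MCF-10F, 5.52 and 4.91 in trMCF clone 11, 5.20 and 5.21 at 1 µM and 5.49 and 5.38 at 10 µM. The ATRA arrays lay within the range of the 2 untreated arrays. HEY1 differed from MCF-10F by -0.80 in trMCF clone 11 (-1.41 to -0.19, adjusted p = 0.15), by -0.80 at 1 µM (-1.41 to -0.19, adjusted p = 0.328) and by -0.58 at 10 µM (-1.11 to -0.04, adjusted p = 0.318). The 3 values share the same 2 MCF-10F arrays and are not independent of each other. The other HEY1 probe set, 218839_at, gave smaller differences of -0.43, -0.20 and -0.49. HEY2 had a signal under 16 on all 8 arrays, between 11.2 and 12.1, and no level can be read for it.

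**Figure D2:**
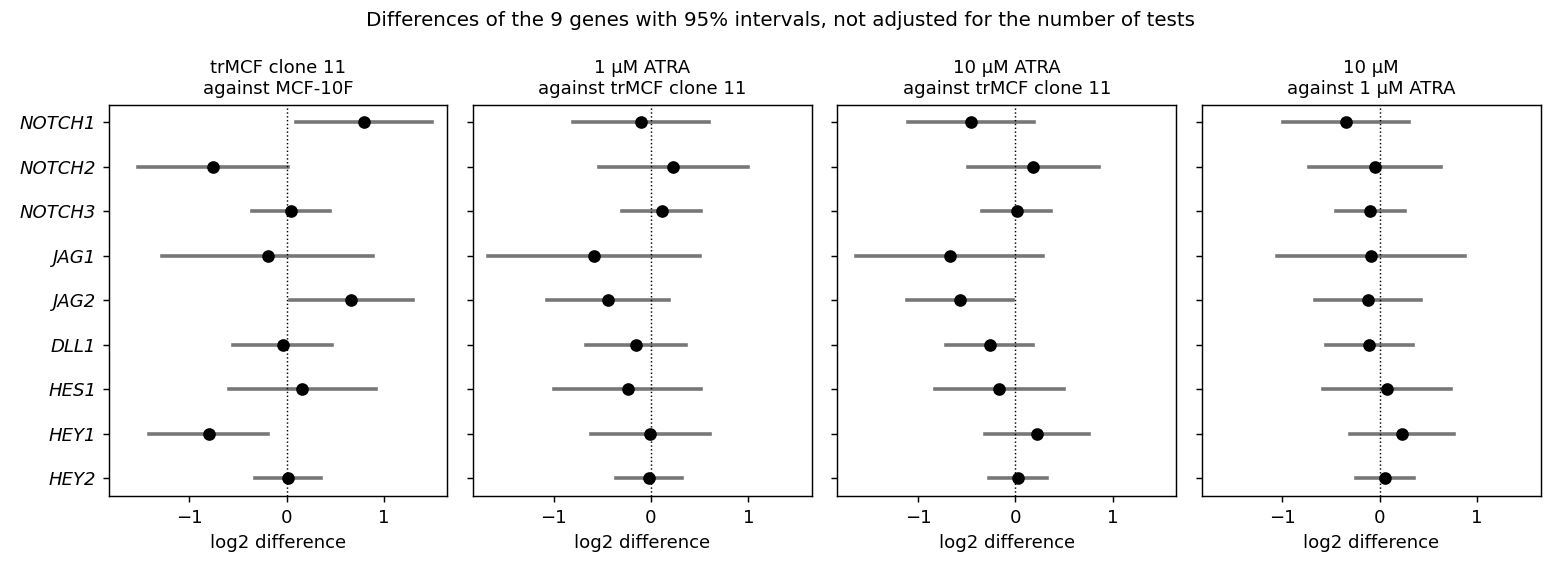
Log2 differences (points) of the 9 genes with 95% intervals (lines, not adjusted for the number of tests) in 4 comparisons, each panel with the first group minus the second. NOTCH1 and JAG2 are above 0 and HEY1 below 0 in trMCF clone 11 against MCF-10F, and in the comparison of the doses every interval spans 0.

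None of the 9 genes passed the test between the doses. Between 10 µM and 1 µM ATRA the widest difference was that of NOTCH1, -0.35 (-0.995 to 0.30), and none of the 9 had an unadjusted p under 0.05. The median difference of the 9 genes was -0.09 on the log2 scale, beside 0.01 for all genes. It was 0.01 in trMCF clone 11 against MCF-10F beside 0.06 for all genes, -0.11 beside -0.06 at 1 µM against trMCF clone 11, and -0.16 beside -0.01 at 10 µM against trMCF clone 11. The comparisons with the untreated clone share its 2 arrays.

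Those 2 arrays decided several of the values above. Between them, 6 of the 9 genes differed by more than 0.5 on the log2 scale, as did 28.1% of all genes, against 2 of 9 and 16.1% in MCF-10F, 1 of 9 and 2.21% at 1 µM and 0 of 9 and 3.95% at 10 µM. Replicate 1 minus replicate 2 of trMCF clone 11 was 0.85 for NOTCH1, -0.97 for NOTCH2, -1.01 for JAG1, 0.71 for JAG2, 0.54 for the dim DLL1 and 0.61 for HEY1. Without replicate 1 the difference from MCF-10F became 0.37 for NOTCH1, -0.27 for NOTCH2 and 0.31 for JAG2, and it was -1.10 for HEY1, with 0 genes past the test. Without replicate 2 it became 1.22 for NOTCH1 (adjusted p = 0.0111), -1.24 for NOTCH2 (0.00995) and 1.02 for JAG2 (0.0197), which then passed, while HEY1 was at -0.50.

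**Figure D3:**
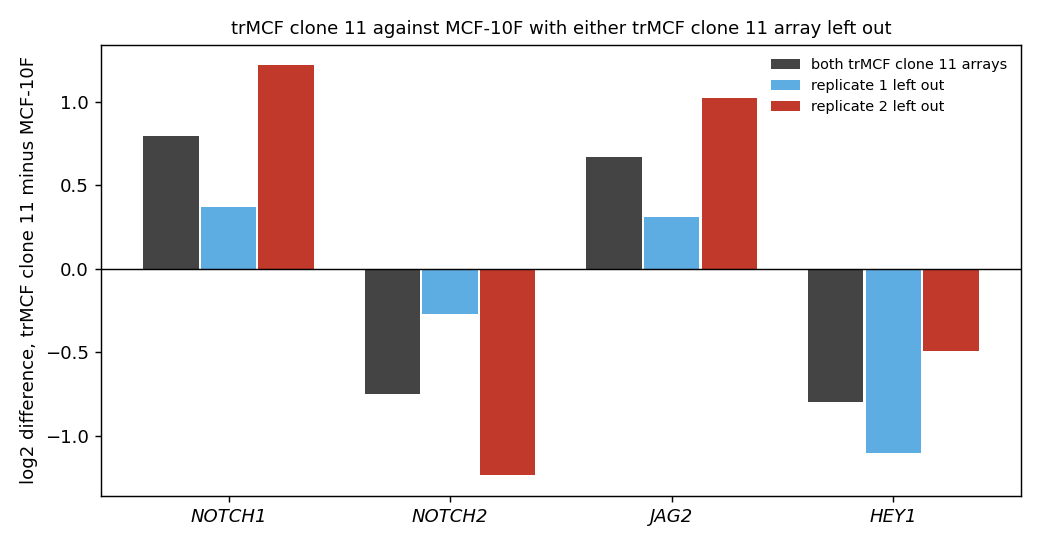
Log2 difference of trMCF clone 11 from MCF-10F for NOTCH1, NOTCH2, JAG2 and HEY1 (bars from 0) with both trMCF clone 11 arrays, without replicate 1 and without replicate 2. The bars of NOTCH1, NOTCH2 and JAG2 are much longer without replicate 2 than without replicate 1, and those of HEY1 run the other way.

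The comparisons with ATRA moved in the same manner. Without trMCF clone 11 replicate 2, NOTCH2 differed by 0.71 and JAG2 by -0.80 between 1 µM ATRA and the untreated clone (adjusted p = 0.0401 and 0.0406). At 10 µM, the differences were then 0.67 for NOTCH2 (0.027), -0.88 for NOTCH1 (0.0239) and -0.92 for JAG2 (0.00951), and DLL1, whose signal was under 16 on 5 of the 8 arrays, passed as well. Without replicate 1 none passed, NOTCH1 at 1 µM turned to 0.32, and NOTCH2 turned to -0.25 at 1 µM and -0.30 at 10 µM. In each of these fits the lone array was taken to vary like the other groups. The same array, replicate 1, is the one whose disease tag goes against its title, and with 2 arrays it cannot be told which of them stands for the clone.

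A list of 76 further Notch pathway genes had 72 with a probe set of their own. Of the 72, 9 passed the test in at least 1 comparison. The share of all genes that passed in at least 1 comparison is not given here, so no more is read from the 9. In trMCF clone 11 against MCF-10F 1 of the 72 rose and 1 fell. At 1 µM against the untreated clone 1 rose and 1 fell, and at 10 µM 5 rose and 3 fell. Against MCF-10F 0 changed at 1 µM, where 15 of the 72 and 12.5% of all genes had an unadjusted p under 0.05, and at 10 µM 1 rose and 2 fell. Between the doses 0 changed, with 1 of the 72 and 1.69% of all genes at an unadjusted p under 0.05. Beside the shares of all genes given above, nothing particular to the pathway is read from these counts.

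**Figure D4:**
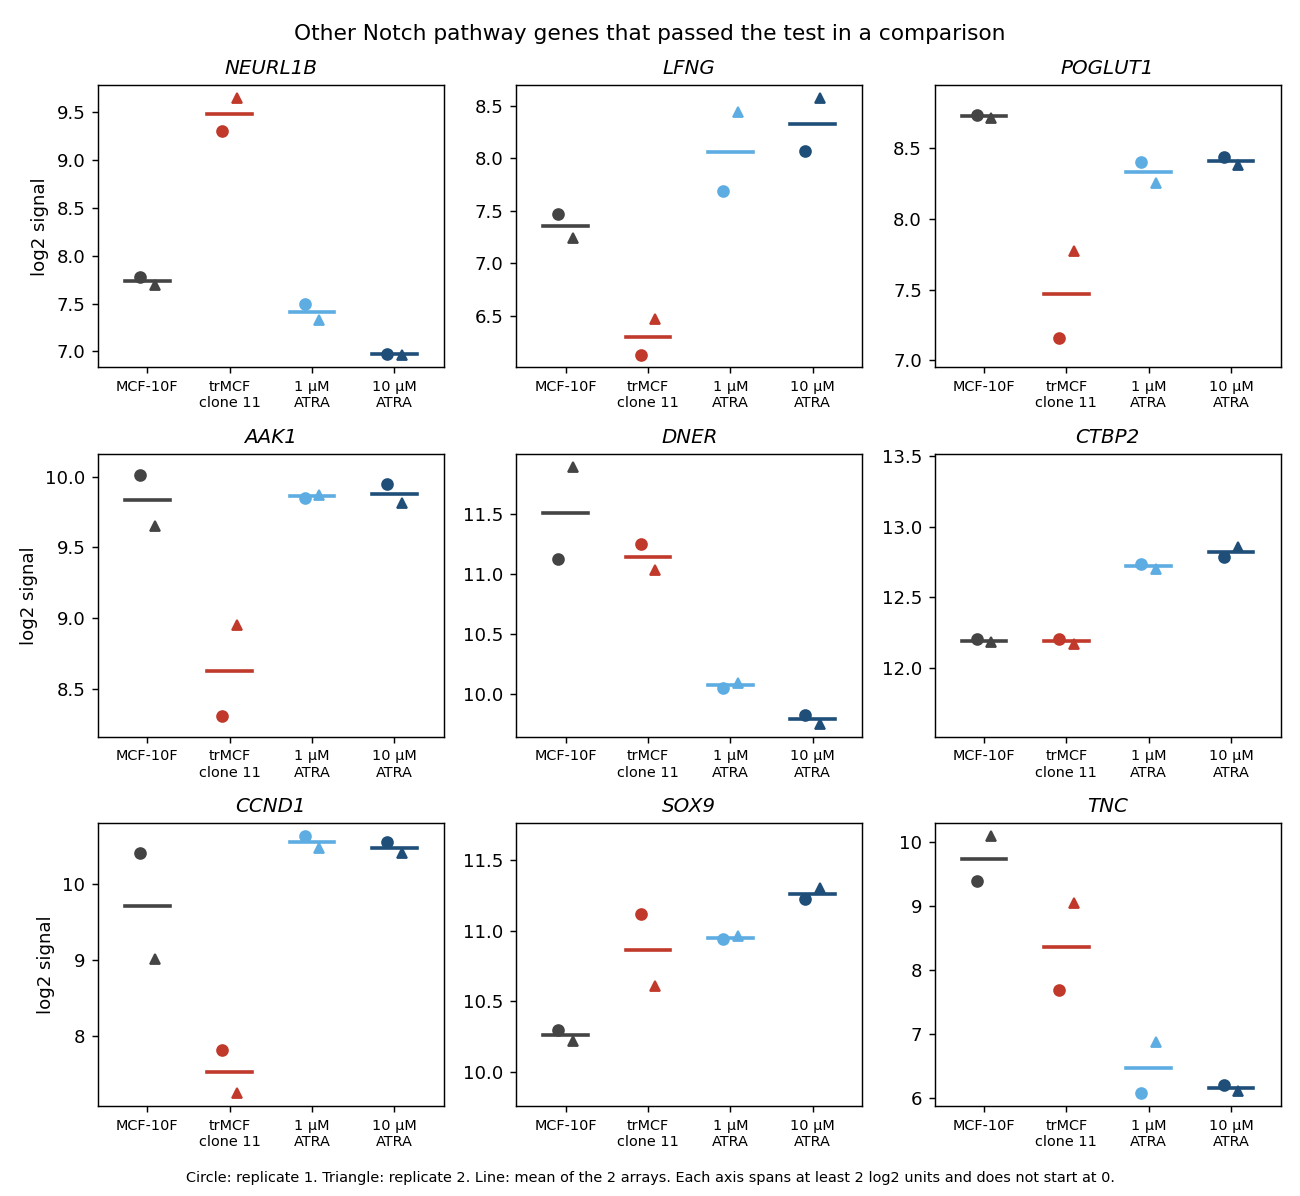
Log2 signal on each array (circle for replicate 1, triangle for replicate 2, line for the mean) of the 9 other Notch pathway genes that passed the test in at least 1 comparison. NEURL1B is high only in the untreated clone, LFNG, POGLUT1, AAK1 and CCND1 are low there, and DNER and TNC are low on the 4 ATRA arrays.

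NEURL1B, a Neuralized ubiquitin ligase that acts on Notch ligands, had the most even pattern. Its log2 signals were 7.77 and 7.70 in MCF-10F, 9.31 and 9.65 in trMCF clone 11, 7.50 and 7.33 at 1 µM and 6.97 and 6.97 at 10 µM. Both arrays of the untreated clone were far above all 6 others. It rose by 1.74 ± 0.18 (SE) in trMCF clone 11 against MCF-10F (limma, adjusted p = 0.0147), fell by 2.07 ± 0.18 at 1 µM (adjusted p = 0.018) and fell by 2.51 ± 0.16 at 10 µM (adjusted p = 0.0016) against the untreated clone. The fall at 10 µM passed under all 17 alternatives. The rise lost its call without MCF-10F replicate 1, and the fall at 1 µM lost its call without either 1 µM array. With the floor of 16 neither the rise nor the fall at 1 µM passed (adjusted p = 0.0672 and 0.0792). All NEURL1B signals were above 16, so the floor changed only the estimate of spread and the adjustment, not the differences. With only the 4 arrays compared the rise did not pass (0.0927). Leaving out either 1 µM array gave that same fit for the rise, since it changed only the estimate of spread. The differences ran from 1.57 to 1.92 and from -2.24 to -1.89. By their brightest probe sets it was the only one of the 4 ligand ubiquitination genes to change.

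Of the 6 enzymes that glycosylate the receptor, 2 rose at 10 µM. LFNG, lunatic fringe, which extends a sugar on the receptor and shifts its response from Jagged toward Delta ligands, read 7.47 and 7.24 in MCF-10F, 6.13 and 6.47 in trMCF clone 11, 7.69 and 8.44 at 1 µM and 8.07 and 8.58 at 10 µM. The 2 untreated arrays of the clone were the lowest and the ATRA arrays the highest. LFNG rose by 2.02 ± 0.29 (SE) at 10 µM against the untreated clone (adjusted p = 0.0133, but 0.0906 and 0.118 without either 10 µM array), and its difference at 1 µM was 1.76 ± 0.28 (adjusted p = 0.0511). In trMCF clone 11 it was -1.06 ± 0.28 against MCF-10F (adjusted p = 0.111). The other LFNG probe set, 215270_at, was nearly level, with means from 5.34 to 5.58, and the mean of both gave 1.13 at 10 µM, which still passed.

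POGLUT1, which adds glucose to the receptor's repeats, read 8.74 and 8.72 in MCF-10F, 7.16 and 7.78 in trMCF clone 11, 8.40 and 8.25 at 1 µM and 8.44 and 8.38 at 10 µM. It fell by 1.26 ± 0.23 in trMCF clone 11 against MCF-10F and rose by 0.94 ± 0.21 at 10 µM against the untreated clone (adjusted p = 0.0476 and 0.0443). Both lie close to the threshold, and the calls were kept by 4 of 15 and 3 of 17 alternatives, with differences from -1.90 to -0.95 and from 0.64 to 1.25. Leaving out any of the 8 arrays apart from trMCF clone 11 replicate 2 ended at least 1 of them. Where the array lay outside the 2 groups compared, only the estimate of spread changed and not the difference.

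Of the other receptors and ligands, DNER changed. DNER, a membrane protein with a Delta-like extracellular part, read 11.12 and 11.89 in MCF-10F, 11.24 and 11.03 in trMCF clone 11, 10.05 and 10.09 at 1 µM and 9.82 and 9.75 at 10 µM. The 4 ATRA arrays were below all others. DNER fell by 1.35 ± 0.24 at 10 µM against trMCF clone 11 and fell by 1.72 ± 0.24 against MCF-10F (adjusted p = 0.0255 and 0.0208), while its differences at 1 µM of -1.07 and -1.44 missed the threshold (adjusted p = 0.114 and 0.135). Either 10 µM array left out ended both calls, and the first was also lost without trMCF clone 11 replicate 1. Both were lost with either 1 µM array left out too, which changed only the estimate of spread and not the differences.

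Of 11 genes of receptor trafficking and turnover, AAK1 rose. AAK1, a kinase of clathrin-mediated uptake, read 10.01 and 9.65 in MCF-10F, 8.31 and 8.95 in trMCF clone 11, 9.85 and 9.87 at 1 µM and 9.95 and 9.81 at 10 µM. Both untreated arrays of the clone were below all others. It rose by 1.25 ± 0.23 at 10 µM against trMCF clone 11 (adjusted p = 0.0271), with 1.24 ± 0.25 at 1 µM (adjusted p = 0.0776). The call was lost without either ATRA array of either dose. For the 1 µM arrays only the estimate of spread changed and not the difference. A second AAK1 probe set, 205434_s_at, also passed at 10 µM (0.95, adjusted p = 0.0462), and the mean of all its probe sets gave 0.42 without passing.

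In the nucleus, the probe sets of RBPJ disagreed. By the brightest, 211974_x_at, RBPJ read 10.51 and 10.51 in MCF-10F, 10.00 and 10.29 in trMCF clone 11, 10.08 and 10.17 at 1 µM and 10.04 and 10.22 at 10 µM, and no comparison passed. By 229540_at it read 5.99 and 6.07, 6.88 and 6.97, 5.92 and 5.96, and 5.79 and 6.01 in the same order, so that both arrays of the untreated clone stood above all others. This probe set rose by 0.90 ± 0.14 in trMCF clone 11 (adjusted p = 0.0348), fell by 0.99 ± 0.14 at 1 µM (0.0422) and fell by 1.03 ± 0.14 at 10 µM (0.0115) against the untreated clone. The third, 207785_s_at, sided with the brightest, at -0.39 ± 0.17 in trMCF clone 11. RBPJ was singled out for this after its values were seen, and which probe set follows the transcript that makes the protein was not tested.

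Of the 10 corepressor genes, CTBP2 rose at 10 µM. CTBP2, a corepressor that binds at RBPJ complexes, read 12.21 and 12.18 in MCF-10F, 12.21 and 12.17 in trMCF clone 11, 12.74 and 12.70 at 1 µM and 12.79 and 12.86 at 10 µM. All 4 ATRA arrays were above the other 4. It rose by 0.63 ± 0.12 at 10 µM against the untreated clone (adjusted p = 0.0315), with 0.53 ± 0.14 at 1 µM (adjusted p = 0.117). The call was lost without either 10 µM array. It was also lost without either 1 µM array, which changed only the estimate of spread and not the difference. Its probe set 201219_at passed at both doses, by 1.15 and 1.19 (adjusted p = 0.0477 and 0.0115), while 201218_at missed the threshold at 10 µM (0.51, adjusted p = 0.0635).

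Of 7 targets that Notch shares with other pathways, CCND1, TNC and SOX9 changed. CCND1, cyclin D1 of the cell cycle, read 10.40 and 9.01 in MCF-10F, 7.80 and 7.24 in trMCF clone 11, 10.63 and 10.47 at 1 µM and 10.55 and 10.40 at 10 µM. Both untreated arrays of the clone were below all others. CCND1 rose by 3.03 ± 0.46 at 1 µM and by 2.95 ± 0.42 at 10 µM against the untreated clone (adjusted p = 0.0471 and 0.0131), calls that were lost without either array of the dose (0.106 to 0.421) and, at 1 µM, without trMCF clone 11 replicate 1 (0.0686). Its second probe set, 208712_at, rose at both doses too (2.92 and 2.69) and fell by 2.59 in trMCF clone 11 against MCF-10F (adjusted p = 0.0184), where the first read -2.18 ± 0.46 (adjusted p = 0.0643).

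TNC, the matrix protein tenascin C, read 9.39 and 10.09 in MCF-10F, 7.68 and 9.04 in trMCF clone 11, 6.08 and 6.88 at 1 µM and 6.20 and 6.11 at 10 µM. The arrays of MCF-10F were the highest and those with ATRA the lowest. TNC fell by 3.58 ± 0.47 at 10 µM against MCF-10F and fell by 2.21 ± 0.47 against trMCF clone 11 (adjusted p = 0.016 and 0.0406). The first lost its call without MCF-10F replicate 2 or either 10 µM array, and the second without any 1 ATRA array. A 1 µM array left out changed only the estimate of spread and not these differences. Another TNC probe set, 216005_at, gave -1.71 and -0.24 and missed the threshold, and the mean of its probe sets gave -2.03 and -0.98, the latter not past it. SOX9, a progenitor transcription factor, read 10.30 and 10.22 in MCF-10F, 11.12 and 10.61 in trMCF clone 11, 10.94 and 10.96 at 1 µM and 11.23 and 11.30 at 10 µM. It rose by 1.003 ± 0.18 at 10 µM against MCF-10F (adjusted p = 0.0488), a call at the threshold that 6 of 17 alternatives kept. The call was lost without any 1 MCF-10F or ATRA array, where a 1 µM array left out changed only the estimate of spread. None of the 7 other HES and HEY family targets, 8 receptor cleavage genes or 9 nuclear factor and coactivator genes changed by their brightest probe sets in any comparison.

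The genes whose 8 log2 values most resembled those of JAG1, HEY1 and NOTCH1, the members with the widest range of group means, were sought among 10418 genes by the root mean square difference after centring each gene. For JAG1 these were ABCC2 (0.105), GPSM2 (0.217) and KIRREL1 (0.219), beside a spread of JAG1 around its own mean of 0.523. For HEY1 they were CDC42EP3 (0.116), PCBP4 (0.117) and NEK7 (0.129), beside 0.375. For NOTCH1 they were SP1 (0.124), ZNF787 (0.138) and RBM38 (0.139), beside 0.391. ABCC2 shared the crossed pattern of JAG1, with 7.42 and 6.50 in MCF-10F and 6.29 and 7.24 in trMCF clone 11. SP1 was, like NOTCH1, highest on trMCF clone 11 replicate 1, at 10.71 against 9.81 on replicate 2. These genes were picked for closeness on the same 8 arrays, so the likeness follows from the search and is not a result. How close a nearest gene comes by search alone was not tested.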

How the data were processed

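RNA of 8 samples was hybridised to Affymetrix U133 Plus 2.0 arrays. The authors deposited 1 intensity per probe set and array on a linear scale, already scaled between arrays. The methods name global scaling in MAS 5.0 and also Iterative Plier 16 (GeneSpring), and the one behind the deposited values was not given in the sources used here. Scanner files were not used here, so detection calls were not made, and the number of arrays limits the precision.

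Signals were taken as log2 without further scaling or a pseudocount. Of 54675 probe sets 62 controls were left out. Of the 54613 tested, 41091 name 1 gene, 1801 several and 11721 none in the annotation table, and probe sets with several names or none enter no value of a gene. A gene is its probe set with the highest mean log2 signal. Groups were given by the sample titles and tested with limma (version 3.58.1, in R 4.3.3), using lmFit and eBayes with a mean for each group and no covariate, with p-values Benjamini-Hochberg adjusted over all probe sets. As in the paper, MCF-10F, trMCF clone 11 and 1 µM ATRA shared 1 fit of 6 arrays, and comparisons with 10 µM came from a fit of all 8. The variance prior added 2.91 degrees of freedom to the 3 residual ones of the smaller fit and 3.18 to the 4 of the larger. The fit was tested on simulated data. Promoter letters were matched in Python with pandas 2.3.3 on RefSeq windows, and figures were drawn with matplotlib 3.10.9.

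The 9 genes and the lists were chosen with earlier results of these data known. Named pathway genes are, per comparison and direction, up to 4 with the smallest p among those past the test, and RBPJ and single other probe sets were added after seeing values. The 3 genes most like a member were sought among genes with a highest group mean signal of at least 100. The alternatives were a fold of 2 with an unadjusted p, another set of groups in the fit, only the 4 arrays compared, quantile normalization, leaving out the dimmest probe sets, a floor of 16, a trended robust prior, the replicate number as a block, the mean of a gene's probe sets, probe sets without a shared-target suffix, and leaving out each array.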

Additional observations from a re-analysis of the deposited data

How the results depend on the processing

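Under 1 alternative, leaving out the dimmest probe sets, only 7 of the 9 genes were tested. The count of the 9 genes past the test was 0 in every comparison under every alternative that kept all 8 arrays. With 1 array left out, some passed only without trMCF clone 11 replicate 2, in the comparisons with the untreated clone. The share of all genes past the test in those fits is not given here, so this is not read as particular to the 9 genes. The count of other Notch pathway genes was less steady. In trMCF clone 11 against MCF-10F it was 2, and it became 8 at a fold of 2 and unadjusted p, 5 with the other set of groups, 0 with only the 4 arrays compared, 0 with the floor, 1 with the trended prior and 0 to 12 with 1 array left out. At 1 µM against trMCF clone 11 it was 2, and 6, 6, 1 and 1 at a fold of 2, with the other groups, with quantile normalization and with the floor, and 0 to 12 with 1 array left out. At 1 µM against MCF-10F it was 0, and 4, 3, 1 and 1 at a fold of 2, with the other groups, with only the 4 arrays and with the replicate block, and 0 to 1 with 1 array left out. At 10 µM against trMCF clone 11 it was 8, and 3, 4 and 2 with the other groups, with only the 4 arrays and with the floor, and 1 to 16 with 1 array left out. At 10 µM against MCF-10F it was 3, and 5, 1, 1 and 5 at a fold of 2, with the other groups, with the floor and with the mean of probe sets, and 0 to 7 with 1 array left out. Between the doses it was 0 throughout. Shares of all genes with 1 array left out are not given here, so those counts are not read as particular to the pathway. The cause of these shifts was not tested. Of the 15 differences of pathway genes past the test, none turned its sign. With the floor of 16, 2 kept their call, as did 8 with only the 4 arrays compared and 13 with quantile normalization. The brightest probe sets behind the 15 differences were above 16 on every array, so the floor left the differences themselves unchanged. HES1 turned sign in trMCF clone 11 against MCF-10F (-0.10 with the mean of probe sets, -0.26 with the unsuffixed probe set, which was under 16 on all 8 arrays, and -0.22 to 0.54 with 1 array left out) and against trMCF clone 11 at 10 µM (0.018) and at 1 µM (-0.51 to 0.033). With 1 array left out, NOTCH1 at 1 µM against trMCF clone 11 ran from -0.53 to 0.32, and NOTCH2 from -0.25 to 0.71 at 1 µM and -0.30 to 0.67 at 10 µM. The replicate numbers were not taken as pairs, since no source ties them and the correlation of replicate differences was over 0.1 in only 3 of 6 pairs of groups (-0.0562 to 0.351, the highest between the doses), so pairing of the doses was not settled. With the number as a block 0 of the 9 genes and 2, 3, 1, 7, 3 and 0 pathway genes passed, in the order of comparisons above with the doses last.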
